A study of Mus musculus with 6 samples.

Results

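The 9 genes described here move sterol out of the cell or store it within, and were followed across all libraries of a Pthlh knockdown study in mouse pancreatic tumour cells. They are Nr1h2, Abca1, Abcg1, Apoe, Mylip, Soat1, Lipa, Npc1 and Npc2, taken by symbol from the deposited gene table, where all 9 were found among 24493 genes. The 6 libraries came from KPCY cells of the C57BL/6 strain, a mouse pancreatic tumour model whose lineage is marked by a yellow reporter. They carried Pthlh hairpin 1 (n = 2), Pthlh hairpin 2 (n = 2) or the non-targeting hairpin shNT (n = 2). All of them, controls included, had therefore been transduced with a hairpin. The design text speaks of parental clones, which no label assigns to libraries, so the part of clones in any difference was not tested. The labels call the cells sorted tumour cells from mice, while the protocols describe culture in DMEM. In bulk RNA such as this, fewer cells of a type and less RNA per cell cannot be told apart.

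Cholesterol reaches a cell mainly inside lipoproteins, whose esters are cut in the lysosome. Lipa, lysosomal acid lipase, does the cutting, and Npc2 hands the freed sterol to Npc1 in the lysosomal membrane for export. Surplus sterol is turned back into esters by Soat1 and kept in lipid droplets, or is oxidised to oxysterols that activate the liver X receptors. Nr1h2 encodes liver X receptor beta. Its targets include the efflux transporters Abca1 and Abcg1, the lipoprotein component Apoe, and Mylip, a ubiquitin ligase also known as Idol.

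The promoters of the 4 genes on which the results below turn most, Lipa, Apoe, Nr1h2 and Soat1, are shown so that the letters stand beside the values. Each is the stretch of 250 bases before the RefSeq start (GRCm38.p6, minus strand, 5′ to 3′), and for Apoe, with 3 listed starts, the one lying farthest upstream. Capitals mark matches to the motifs searched on both strands.
Lipa (chr19:34527475-34527724): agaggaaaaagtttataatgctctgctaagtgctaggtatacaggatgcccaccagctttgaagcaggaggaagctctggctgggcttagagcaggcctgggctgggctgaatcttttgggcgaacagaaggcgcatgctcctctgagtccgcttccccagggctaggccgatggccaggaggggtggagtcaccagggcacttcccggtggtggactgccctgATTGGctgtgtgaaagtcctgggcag
Apoe (chr7:19699189-19699438): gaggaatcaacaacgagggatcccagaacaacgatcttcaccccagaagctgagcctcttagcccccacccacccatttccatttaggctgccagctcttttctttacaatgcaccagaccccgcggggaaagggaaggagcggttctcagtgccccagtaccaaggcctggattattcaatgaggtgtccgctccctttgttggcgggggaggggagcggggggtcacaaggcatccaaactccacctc
Nr1h2 (chr7:44553966-44554215): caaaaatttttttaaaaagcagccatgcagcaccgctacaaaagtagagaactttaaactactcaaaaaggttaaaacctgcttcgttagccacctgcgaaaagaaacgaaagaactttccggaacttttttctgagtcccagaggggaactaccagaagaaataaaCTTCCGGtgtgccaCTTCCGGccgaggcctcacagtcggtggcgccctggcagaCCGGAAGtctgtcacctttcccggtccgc
Soat1 (chr1:156474329-156474578): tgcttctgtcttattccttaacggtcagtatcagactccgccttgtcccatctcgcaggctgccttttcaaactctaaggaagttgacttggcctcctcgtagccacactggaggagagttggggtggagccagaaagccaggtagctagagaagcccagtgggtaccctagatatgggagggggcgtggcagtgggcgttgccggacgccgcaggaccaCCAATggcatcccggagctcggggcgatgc

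The motifs were CACGTG (the E-box core that TFEB binds), TCACNCCAC (a sterol regulatory element), the LXR response element (AGGTCA repeated after 4 bases), CCAAT (the box bound by NF-Y), GGGCGG (the box bound by Sp1 factors) and CCGGAAG (an ETS core). The ETS core was added after the Nr1h2 promoter had been read. Lipa held 1 CCAAT box, 26 bases before the start, and Soat1 held 1, 30 bases before it. Nr1h2 held 3 ETS cores, and Apoe held none of the 6 motifs. Neither the E-box, the sterol element nor the LXR element matched in these 4 windows. Of 32851 promoters in the table, 33.8% held CCAAT, 32.7% GGGCGG, 6.91% CCGGAAG, 6.02% CACGTG, 1.05% TCACNCCAC and 0.0152% the LXR element. Abca1, itself an LXR target, held 1 CACGTG but no match to the LXR element. That element was searched as an exact repeat and almost never matched, so its absence from a window says little. A match describes letters and does not show that a factor binds.

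Levels are TPM, abundances scaled to a fixed library total and for transcript length, and so can be set beside each other across genes. TPM keeps no read numbers, so the depth of the libraries is unknown. Pthlh, the targeted gene, had 0 and 0.106 TPM under hairpin 1 and 0.0423 and 0.263 TPM under hairpin 2, against 0.752 and 0.966 TPM in shNT. Its means were 6.14% and 17.8% of the shNT mean with hairpins 1 and 2, and without the filter on low values it fell by 0.76 over both hairpins (log2; limma adjusted p = 0.0120). With hairpin 1 it fell by 0.82 (limma adjusted p = 0.00837), and the hairpin 2 difference of -0.69 did not pass (limma adjusted p = 0.0583). Replicate libraries had r = 0.987 to 0.992 across 11549 tested genes, themselves not independent. Libraries of hairpin 2 and shNT had r = 0.982 to 0.988, so some were as alike as the shNT replicates (0.987). Hairpin 1 and shNT libraries had r = 0.960 to 0.965. A single entry, Mir6236, held 19.7% to 23.4% of all TPM in the 4 knockdown libraries, against 34.1% and 24.3% in shNT, and the median of all tested genes was shifted by 0.11 (log2) with hairpin 1 and 0.09 with hairpin 2. After median-ratio scaling, which removes most of such a shift by design, 0.01 and 0.0015 remained, so these values do not check it. The 8 epithelial markers summed to 4388 to 4456 TPM with hairpin 1 and 3760 to 3850 TPM with hairpin 2, against 3991 to 4150 TPM in shNT. With hairpin 1, 3 of the 6 tested markers rose and 3 fell, so the sum combines opposite changes. Epcam and Cldn4, both in the list, reached at most 0.605 and 0.235 TPM. Macrophages express Apoe, Abca1 and Lipa strongly. Here 11 of 15 macrophage markers stayed under 1 TPM in all libraries, and Adgre1, C1qa, C1qc, Tyrobp and Ctss were listed at 0 in all 6. The list summed to 91.9 to 94.1 TPM with hairpin 1 and 69.4 TPM with hairpin 2, against 74.3 to 77.0 TPM in shNT, mostly from Cd14, with 73.8 and 77.5 TPM under hairpin 1 and 60.7 and 59.4 TPM under hairpin 2, against 66.2 and 69.6 TPM in shNT. Mrc1, a mannose receptor, had 14.97 and 14.7 TPM under hairpin 1 and 5.65 and 6.11 TPM under hairpin 2, against 4.80 and 4.70 TPM in shNT. It was thus high in the hairpin 1 libraries, where Lipa and Apoe were also highest, and its part in those results was not tested.

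**Figure D1:**
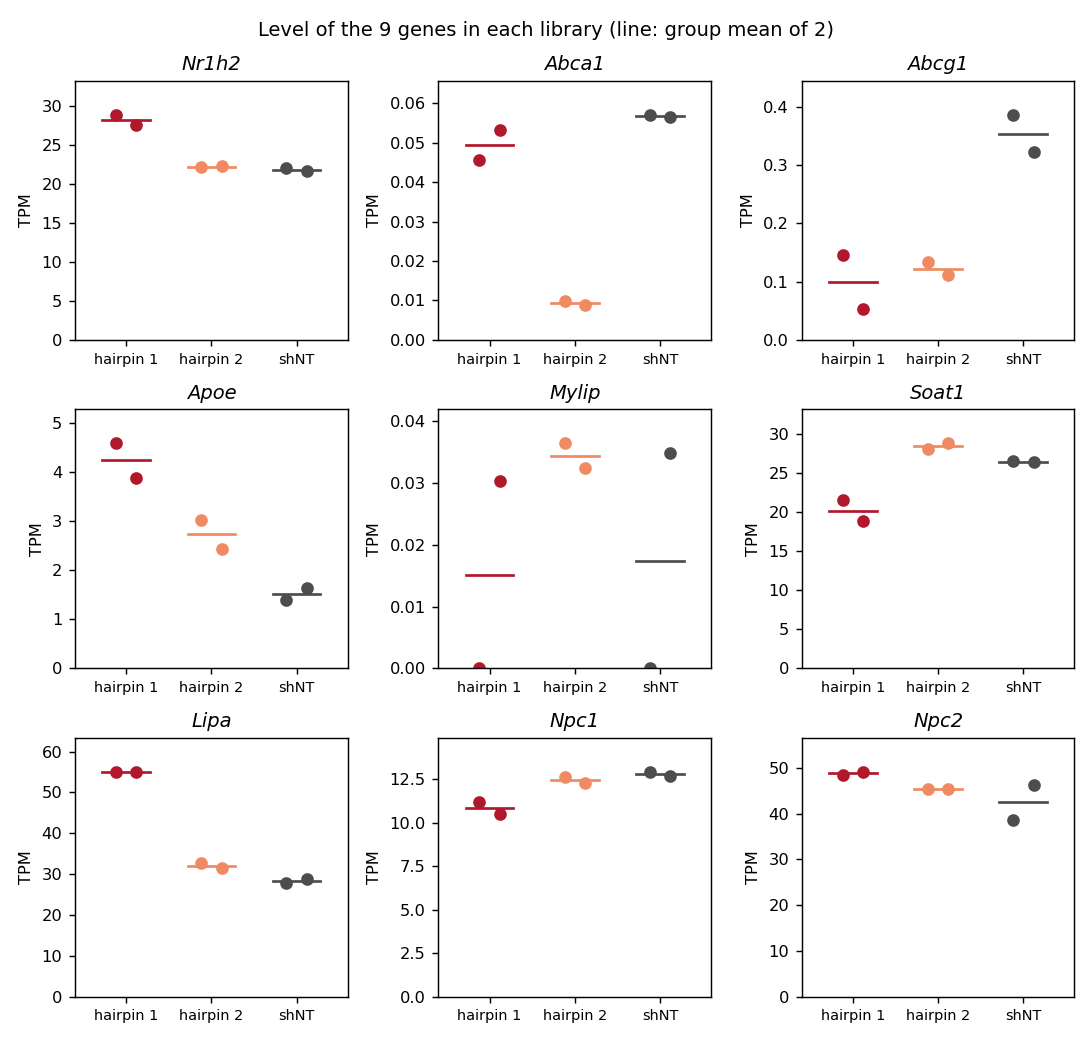
TPM of each of the 9 genes (vertical axes, each starting at 0 and scaled separately) in the 2 libraries of hairpin 1, hairpin 2 and shNT; points are libraries and lines are group means. Lipa with hairpin 1 sits at 54.9 and 55.1 TPM, clear of every other library, and the Abca1 and Mylip axes end below 0.1 TPM.

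In shNT the order of levels ran from Npc2 (42.4 TPM) through Lipa (28.3), Soat1 (26.5), Nr1h2 (21.8) and Npc1 (12.8) to Apoe (1.51), Abcg1 (0.354), Abca1 (0.0568) and Mylip (0.0174). In TPM, Npc2 varied most between the shNT libraries, with 38.5 and 46.3 TPM. Lipa and Soat1 lay close together there, yet their shNT libraries did not overlap. All 4 LXR target genes stood below the 5 other genes. Nr1h2, Npc1, Npc2, Soat1, Lipa and Apoe passed the expression filter, set at 1 TPM in no fewer than 2 libraries, and were above 1 TPM in all 6. Abca1, Abcg1 and Mylip did not.

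Each gene was tested on log2(TPM + 1) with limma over all genes that passed the filter. For the knockdown comparison, the hairpin group means were averaged and shNT was subtracted. Of the 6 tested genes 3 rose, Lipa, Apoe and Nr1h2, and 0 fell, beside 39.4% of all tested genes called, 27.3% higher and 12.1% lower. By limma 4 of the 6 had an unadjusted p under 0.05. The split depended on scale: after median-ratio scaling or quantile normalization, Lipa and Apoe rose while Soat1 and Npc1 fell. The balance of all 11549 genes turned as well, with 1742 higher and 2155 lower after median-ratio scaling, against 3149 and 1401 in deposited TPM. The median change of the 6 was 0.17 (log2), against 0.10 for all genes. With hairpin 1 alone 3 rose and 2 fell, beside 50.2% of all genes called, 32.1% higher and 18.1% lower. With hairpin 2 alone 1 rose and 0 fell, beside 9.63% of all genes called, 6.62% higher and 3.0% lower, with 2 of the 6 at an unadjusted p under 0.05 by limma. Hairpin 2 and hairpin 1 differed for 5 of the 6, with 2 higher and 3 lower with hairpin 2, beside 40.1% of all genes called, 19.9% higher and 20.2% lower. With 6 genes these counts are descriptions, and those for both hairpins averaged and for hairpin 2 lie close to the background. The comparisons with shNT share the same control libraries.

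**Figure D2:**
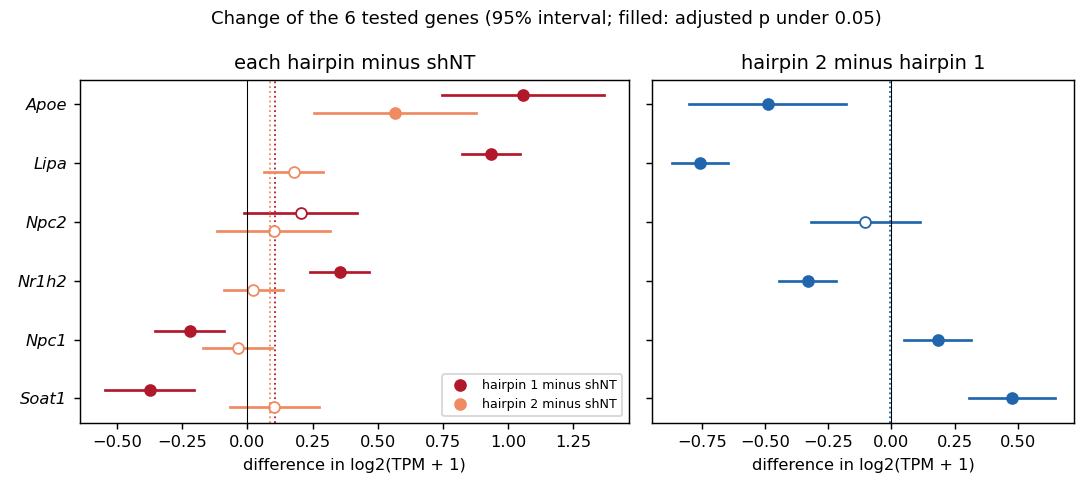
Difference in log2(TPM + 1) for the 6 tested genes, with 95% intervals: left, hairpin 1 minus shNT and hairpin 2 minus shNT; right, hairpin 2 minus hairpin 1. Filled points have a limma adjusted p under 0.05, dotted lines are the medians of all tested genes, and the hairpin 1 points of Lipa and Apoe lie near 1 while the hairpin 2 point of Lipa lies at 0.18.

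Lipa, the acid lipase (chromosome 19, 34492318 to 34527474, minus strand, mm10), had the smallest adjusted p of the 6 genes in the knockdown comparison. It stood at 54.9 and 55.1 TPM under hairpin 1 and at 32.7 and 31.5 TPM under hairpin 2, against 27.7 and 28.8 TPM in shNT. All 4 knockdown libraries lay above both shNT libraries, and the hairpins did not overlap. The mean was 1.94 times that of shNT with hairpin 1 and 1.13 times with hairpin 2. In the knockdown comparison Lipa rose by 0.56 ± 0.04 (log2, SE; limma adjusted p = 0.000968). With hairpin 1 it rose by 0.93 ± 0.04 (limma adjusted p = 0.000139), whereas the hairpin 2 difference of 0.18 ± 0.04 missed the threshold (limma adjusted p = 0.0645). Hairpin 2 minus hairpin 1 was -0.76 (95% interval -0.87 to -0.65; limma adjusted p = 0.000327). Chromosome 19 as a whole had a median of -0.07 with hairpin 1, below the 0.11 of all genes, and after centring of each chromosome the Lipa rise with hairpin 1 was 1.00. The hairpin 2 difference passed without shNT replicate 2, but against 1 control library that pass is no result about Lipa.

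Soat1, which esterifies sterol for storage (chromosome 1, 156424525 to 156474331, minus strand), moved the other way with hairpin 1. Its level was 21.6 and 18.9 TPM under hairpin 1 and 28.2 and 28.9 TPM under hairpin 2, against 26.5 and 26.4 TPM in shNT. Hairpin 1 libraries lay below, and hairpin 2 libraries above, both shNT libraries. Soat1 fell by 0.38 ± 0.07 with hairpin 1 (log2, SE; limma adjusted p = 0.00709), and its difference under hairpin 2 was 0.10 ± 0.07 (limma adjusted p = 0.340). Hairpin 2 minus hairpin 1 was 0.48 ± 0.07 (SE; 0.31 to 0.65 at 95%), with a limma adjusted p of 0.00434. Averaged over both hairpins, Soat1 was at -0.14 (limma adjusted p = 0.119) in deposited TPM, and at -0.23 (limma adjusted p = 0.0261) after median-ratio scaling, so that call depended on scale. An entry on the other strand, Gm37648, overlaps Soat1, and whether counting used strand is not given in the sources used here.

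Within each library, Lipa TPM over Soat1 TPM was 2.55 and 2.92 with hairpin 1 and 1.161 and 1.092 with hairpin 2, against 1.046 and 1.091 in shNT. The ratio was far higher with hairpin 1, and the lower hairpin 2 library lay only just above the higher shNT library. Nceh1, a neutral hydrolase of stored esters, averaged 11.6 TPM with hairpin 1 and 11.3 TPM with hairpin 2, against 12.2 TPM in shNT, and did not pass (limma adjusted p = 0.208). Soat2, the esterifying enzyme of liver and intestine, averaged 8.25 and 8.19 TPM with hairpins 1 and 2, against 8.34 TPM in shNT (limma adjusted p = 0.894).

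Npc1 and Npc2 work in series at the lysosomal membrane; Npc1 fell with hairpin 1, and Npc2 passed in none of the comparisons with all libraries. Npc1 (chromosome 18, 12189692 to 12236400, minus strand) had 11.2 and 10.5 TPM under hairpin 1 and 12.6 and 12.3 TPM under hairpin 2, against 12.9 and 12.7 TPM in shNT. All knockdown libraries lay below both shNT libraries, by little with hairpin 2. Npc1 fell by 0.22 ± 0.05 with hairpin 1 (log2, SE; limma adjusted p = 0.0184). It no longer passed when the first shNT library (limma adjusted p = 0.0546) or the second hairpin 1 library (0.1004) was omitted; alternatives spanned 0.00394 to 0.1004. With hairpin 2 the difference was -0.04 (limma adjusted p = 0.661), and averaged over both hairpins it was -0.13 (limma adjusted p = 0.0744), or -0.22 (limma adjusted p = 0.0176) after median-ratio scaling. Hairpin 2 minus hairpin 1 was 0.18 (limma adjusted p = 0.0413), a call lost with the replicate block (limma adjusted p = 0.0526). Omitting either hairpin 1 library (0.0804 and 0.187) or either hairpin 2 library (0.183 and 0.127) also ended it; alternatives spanned 0.0187 to 0.187. Rmc1 and Gm15956 overlap Npc1 on the other strand, with the same limit as for Soat1.

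Npc2, the soluble carrier of the lysosome (chromosome 12, 84754562 to 84773152, minus strand), had 48.5 and 49.1 TPM under hairpin 1 and 45.4 and 45.4 TPM under hairpin 2, against 38.5 and 46.3 TPM in shNT. The hairpin 2 libraries lay between the shNT libraries. Npc2 did not pass with hairpin 1 (0.20, 95% interval -0.01 to 0.42; limma adjusted p = 0.101) or hairpin 2 (0.10, -0.11 to 0.32; limma adjusted p = 0.451). When the second shNT library was omitted, the lower one was left as the only control. The Npc2 differences were then 0.33 with hairpin 1 and 0.23 with hairpin 2. Against 1 control library they carry no call. The ratio of Npc2 to Npc1 TPM was 4.34 and 4.67 with hairpin 1 and 3.60 and 3.69 with hairpin 2, against 2.98 and 3.65 in shNT.

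Nr1h2, the beta receptor for oxysterols (chromosome 7, 44549616 to 44553951, minus strand), had 28.8 and 27.6 TPM under hairpin 1 and 22.2 and 22.2 TPM under hairpin 2, against 22 and 21.7 TPM in shNT. Hairpin 1 stood apart from the other groups, which differed by under 1 TPM. Nr1h2 rose by 0.35 ± 0.05 with hairpin 1 (log2, SE; limma adjusted p = 0.00221), and hairpin 2 differed from shNT by 0.02 (limma adjusted p = 0.755). Hairpin 2 minus hairpin 1 was -0.33 (95% interval -0.44 to -0.22; limma adjusted p = 0.00374, and 0.0538 without small-RNA entries). Chromosome 7, which also carries Apoe, had a median of 0.22 with hairpin 1, and after chromosome centring the Nr1h2 rise was 0.14 (limma adjusted p = 0.0562). Without small-RNA entries it was 0.18 (limma adjusted p = 0.180), and alternatives spanned 0.00176 to 0.180. The mean of both hairpins was 0.19 ± 0.04 above shNT (limma adjusted p = 0.0161). Under median-ratio scaling it was 0.09 and did not pass (limma adjusted p = 0.117), and alternatives spanned 0.0139 to 0.869. Omitting the first hairpin 1 library (0.0554) or either hairpin 2 library (0.0565 and 0.0597) also ended the call.

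The alpha receptor gene Nr1h3 averaged 5.17 TPM with hairpin 1 and 8.35 TPM with hairpin 2, against 8.73 TPM in shNT, and fell by 0.65 with hairpin 1 (log2; limma adjusted p = 0.00715). Nr1h2 over Nr1h3 was 6.07 and 4.93 with hairpin 1 and 2.53 and 2.80 with hairpin 2, against 2.81 and 2.25 in shNT. Of the shared partner receptors, Rxra fell by 0.40 (limma adjusted p = 0.00434) and Rxrb rose by 0.26 (limma adjusted p = 0.00501) with hairpin 1. In the list of LXR partners, coregulators and other targets, 5 of 19 tested genes rose and 5 fell in the knockdown comparison (2 and 5 after median-ratio scaling), with a median of 0.03 against 0.10 for all genes. Of all genes, 27.3% were called higher and 12.1% lower in deposited TPM, so the rises lay near that share. After median-ratio scaling 1742 of all 11549 genes were higher and 2155 lower. Scd1, a fatty acid desaturase, fell by 0.70, and Arl4c, a small GTPase, fell by 0.54 (log2, limma adjusted p = 0.000760 and 0.00117). Named after their values were seen, Apoc1, Ttc39b and Tmem135 of the same list rose by 1.12, 0.25 and 0.24 (limma adjusted p = 0.0224, 0.0298 and 0.0277). Srebf1, an LXR target that drives fatty acid synthesis, was at -0.07 (limma adjusted p = 0.370).

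Apoe, the lipoprotein component (chromosome 7, 19696109 to 19699188, minus strand), was the single LXR target among the 9 genes that passed the filter. It had 4.58 and 3.88 TPM under hairpin 1 and 3.02 and 2.44 TPM under hairpin 2, against 1.39 and 1.64 TPM in shNT. No group overlapped another, with hairpin 1 highest and shNT lowest. The means were 2.80 and 1.80 times that of shNT with hairpins 1 and 2. Apoe rose by 0.81 ± 0.11 in the knockdown comparison (log2, SE; limma adjusted p = 0.00462) and by 1.06 ± 0.12 with hairpin 1 (limma adjusted p = 0.00169). With a pseudocount of 0.1 the rise over both hairpins was 1.12, as a smaller pseudocount damps low genes less. With hairpin 2 it rose by 0.57 ± 0.12 at the edge of the threshold (limma adjusted p = 0.0489), with 0.0708 after median-ratio scaling. It failed in 13 of 16 alternatives, which spanned 0.0396 to 0.209. Among these were the omission of the first shNT library, of either hairpin 1 library or of either hairpin 2 library. The replicate block was another (limma adjusted p = 0.0734). With the block 163 of all 11549 genes were called higher and 113 lower with hairpin 2, against 765 and 347 in the main fit. Omissions leave a group with 1 library and also change the calls of all genes. These failures are thus no result about Apoe alone. Hairpin 2 minus hairpin 1 was -0.49 (limma adjusted p = 0.0273), but it did not pass when either hairpin 1 library (0.137 and 0.0602) or either hairpin 2 library (0.0503 and 0.128) was omitted. Alternatives spanned 0.0230 to 0.137.

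Abcg1, the transporter that loads sterol onto HDL (chromosome 17, 31057675 to 31117988, plus strand), went in the opposite direction at a level below the filter. It had 0.145 and 0.0536 TPM under hairpin 1 and 0.133 and 0.111 TPM under hairpin 2, against 0.386 and 0.322 TPM in shNT. All 4 knockdown libraries lay below both shNT libraries, at 28.1% and 34.5% of the shNT mean with hairpins 1 and 2. In the same model without the filter, Abcg1 fell by 0.29 ± 0.05 over both hairpins (log2, SE; limma adjusted p = 0.0184), and by 1.13 with a pseudocount of 0.1. It did not pass when either shNT library (limma adjusted p = 0.0909 and 0.0532), the second hairpin 1 library (0.0512) or either hairpin 2 library (0.0772 and 0.0838) was omitted; alternatives spanned 0.00636 to 0.109. Abcg1 also fell by 0.30 with hairpin 1 (limma adjusted p = 0.0154), which omitting the first shNT library (0.0731), the second hairpin 1 library (0.0599) or either hairpin 2 library (0.0583 and 0.0582) ended; alternatives spanned 0.00383 to 0.0731. Hairpin 2 gave -0.27 (limma adjusted p = 0.0731), which passed after chromosome centring alone (limma adjusted p = 0.0386). Centring subtracts the chromosome 17 median, 0.17 with hairpin 2, whatever the level of the gene. At levels this low, that pass adds nothing to the call. An rRNA entry, Gm25447, lies inside the gene.

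Abca1, the transporter that exports sterol to lipid-poor apolipoprotein (chromosome 4, 53030787 to 53159895, minus strand), had 0.0455 and 0.0533 TPM under hairpin 1 and 0.00986 and 0.00875 TPM under hairpin 2, against 0.0571 and 0.0566 TPM in shNT. Both hairpin 2 libraries were far below the rest, but without read numbers the error of such low levels is unknown, and no comparison passed without the filter (limma adjusted p = 0.169 to 0.810). After chromosome centring the difference passed over both hairpins (-0.19, limma adjusted p = 0.0118) and for hairpin 1 alone (-0.18, limma adjusted p = 0.00963). Centring subtracts the chromosome 4 median, 0.15 and 0.17 in these comparisons, whatever the level of the gene. Before it, Abca1 was at -0.04 and -0.01. The centred values are thus mostly the subtracted median, and these passes are no result about Abca1. Mylip (chromosome 13, 45389742 to 45412022, plus strand) had 0 and 0.0303 TPM under hairpin 1 and 0.0364 and 0.0324 TPM under hairpin 2, against 0 and 0.0348 TPM in shNT. It was listed at 0 in 1 library each of hairpin 1 and shNT, so no fold is given.

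Other efflux and lipoprotein genes included both rises and falls. Of 17 tested, 2 rose and 5 fell in the knockdown comparison, also after median-ratio scaling, with a median of -0.08 against 0.10 for all genes. The shares of all genes in deposited TPM were 27.3% higher and 12.1% lower, and 1742 and 2155 of 11549 after median-ratio scaling. Apoa2, an HDL apolipoprotein, averaged 4.21 and 5.49 TPM with hairpins 1 and 2, against 1.24 TPM in shNT, and rose by 1.38 (log2; limma adjusted p = 0.00137). Apob, the LDL scaffold, averaged 6.30 TPM with hairpin 1 and 28.7 TPM with hairpin 2, against 30.0 TPM in shNT, and fell by 2.09 with hairpin 1 (limma adjusted p = 6.74e-05). Clu, an HDL-associated chaperone, fell by 0.81 (limma adjusted p = 0.00182).

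**Figure D3:**
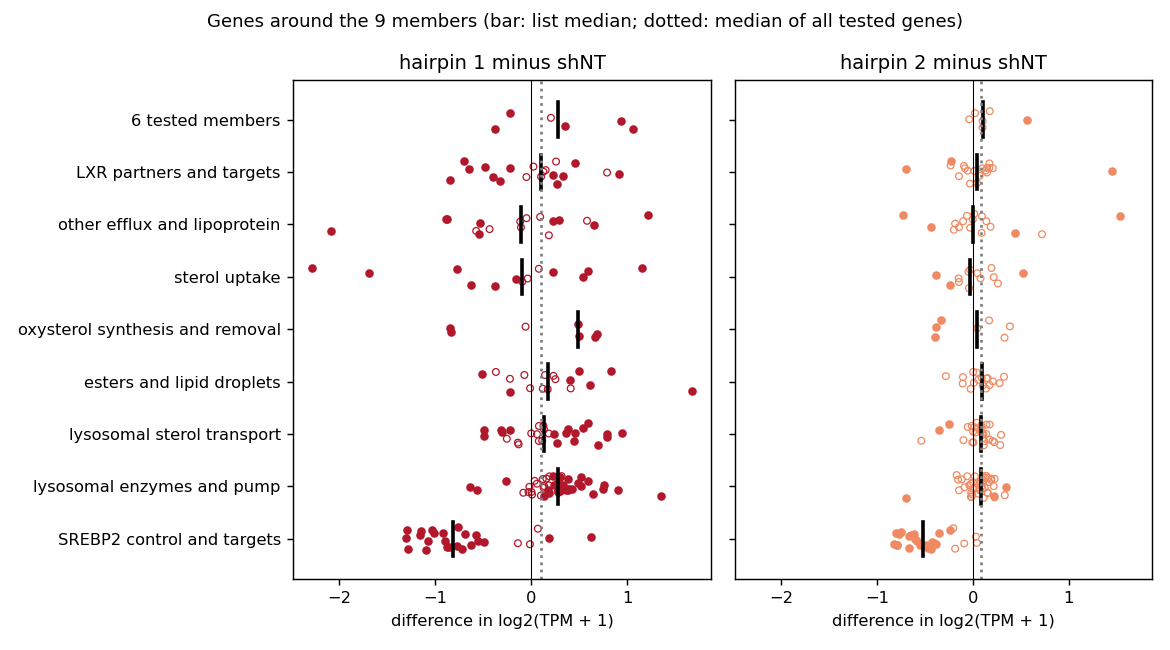
Difference from shNT in log2(TPM + 1) of single genes in the 6 tested members and in 8 lists around them, for hairpin 1 (left) and hairpin 2 (right). Filled points have a limma adjusted p under 0.05, bars are list medians and the dotted line is the median of all tested genes; most lysosomal enzymes sit to the right of it with hairpin 1 (median 0.28), and most SREBP2 genes to the left with both hairpins.

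Of 45 tested lysosomal hydrolases, proton pump subunits and TFEB factors, 26 rose and 3 fell with hairpin 1, and 2 rose and 1 fell with hairpin 2, where 32.1% and 6.62% of all genes were called higher. The number of rises with hairpin 1 depended on scale: 15 rose and 3 fell after chromosome centring, beside 2272 higher and 2462 lower of all 11549 genes, and 9 rose and 3 fell without small-RNA entries, beside 1700 and 2778 of 11281. After median-ratio scaling the counts were 19 and 4 with hairpin 1 and 0 and 3 with hairpin 2, where limma gave the 0 calls. Of all 11549 genes, 2623 were then higher and 2802 lower with hairpin 1, and 244 and 554 with hairpin 2. The list median was 0.28 with hairpin 1 and 0.08 with hairpin 2, against 0.11 and 0.09 for all genes. The Lipa rise of 0.93 with hairpin 1 was exceeded by 1 gene of the list, Hexa, a hexosaminidase subunit named after its values were seen (1.35, limma adjusted p = 0.000561). Atp6v0d1, a pump subunit, averaged 54.3 and 30.8 TPM with hairpins 1 and 2, against 28.6 TPM in shNT, beside 55.0, 32.1 and 28.3 TPM for Lipa in the same groups. Ctsh, a cathepsin, fell with hairpin 1 and hairpin 2 (-0.64 and -0.70; adjusted p by limma 0.00167 and 0.0146).

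Among 28 tested genes of lysosomal sterol transport and sensing, 12 rose and 5 fell with hairpin 1 (10 and 7 after median-ratio scaling, 8 and 7 without small-RNA entries), and 0 rose and 2 fell with hairpin 2 by limma. In deposited TPM, 32.1% of all genes rose and 18.1% fell with hairpin 1, and 6.62% and 3.0% with hairpin 2. With hairpin 1, 2623 of 11549 rose and 2802 fell after median-ratio scaling, and 1700 and 2778 of 11281 without small-RNA entries. Stard3, a late endosomal sterol transporter, averaged 22.4 and 12.4 TPM with hairpins 1 and 2, against 11.2 TPM in shNT. Scarb2, a lysosomal membrane protein, averaged 32.5 and 15.3 TPM, against 18.4 TPM in shNT, so it rose with hairpin 1 and fell with hairpin 2 (limma adjusted p = 0.000343 and 0.0481). Of 17 tested genes of esters and lipid droplets, 5 rose and 2 fell with hairpin 1 (5 and 4 after median-ratio scaling). In deposited TPM neither share exceeded the 32.1% and 18.1% of all genes. Dgat2, which makes triglyceride, and Plin3, a droplet coat protein, rose by 0.83 and 0.61 there (limma adjusted p = 0.000308 and 0.000447), while Soat1 fell.

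On the supply side, 4 of 13 tested uptake genes rose and 6 fell with hairpin 1, beside the same 32.1% and 18.1% of all genes. SREBP2 and its control and target genes fell in 21 of 26 cases with each hairpin, while 2 rose with hairpin 1 and 0 with hairpin 2 by limma. Of all genes, 18.1% fell with hairpin 1 and 3.0% with hairpin 2. The list medians were -0.82 and -0.52, and the falls included the isoprenoid enzyme Idi1 (-1.30 and -0.82, limma adjusted p = 4.21e-05 and 0.00400). In the list of oxysterol synthesis and removal, 4 of 7 tested genes rose and 3 fell over both hairpins, but 1 rose and 3 fell without small-RNA entries or after chromosome centring. Over both hairpins in deposited TPM, 27.3% of all genes rose and 12.1% fell. Without small-RNA entries 960 of 11281 rose and 1917 fell, and after chromosome centring 1379 and 1653 of 11549. Dhcr7, which acts at the end of cholesterol synthesis, fell by 0.62 (limma adjusted p = 0.000953). Srebf2 itself was at -0.16 (limma adjusted p = 0.0911).

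**Figure D4:**
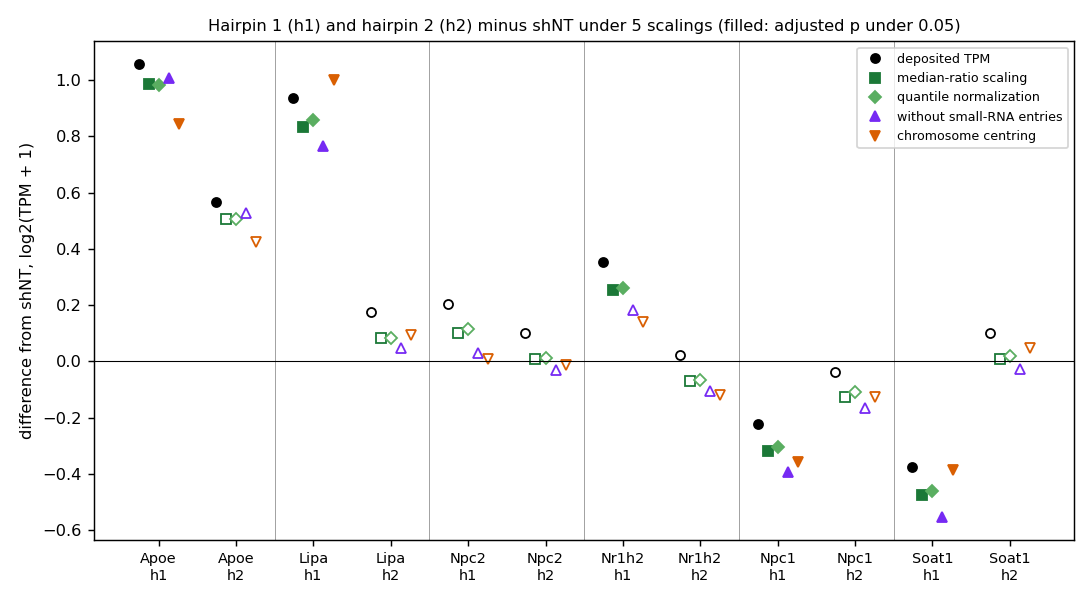
Difference from shNT in log2(TPM + 1) of the 6 tested genes with hairpin 1 (h1) and hairpin 2 (h2) in deposited TPM and under 4 other scalings; filled symbols have a limma adjusted p under 0.05. Apoe and Lipa stay above 0.7 with hairpin 1 under all 5, Soat1 and Npc1 stay below 0 with hairpin 1, and the hairpin 2 values of Nr1h2, Npc2 and Soat1 lie on both sides of 0.

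With both hairpins pooled as 1 group of 4 libraries, limma called 0 of the 6 tested genes, with 1 at an unadjusted p under 0.05. In that fit 0 of all 11549 genes were called higher and 1 lower, so the 0 is no result about these 6. The adjusted p was then 0.139 for Apoe, 0.273 for Lipa and 0.392 for Nr1h2. Among genes with a mean of at least 5 TPM, the closest profiles over the 6 libraries, by Pearson r of log2(TPM + 1), were Mbip (0.998) and Exoc7 (0.996) for Apoe. For Lipa they were Os9 (0.999) and Mpp1 (0.999), and for Nr1h2 Atp2b1 (0.999) and Csnk1a1 (0.998), out of 8340 genes searched. These are descriptions over 6 libraries in 3 groups and carry no test.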

How the data were processed

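The authors deposited TPM per gene for 6 libraries, summing to 1000000 in each; mm10, Salmon, DESeq2 and R 3.5 are named, per the submitters' processing notes, while their roles and the annotation are not given in the sources used here. Groups and replicate numbers came from the sample titles. Genes reaching 1 TPM in 2 or more libraries (11549 of 24493) were tested on log2(TPM + 1) with limma 3.58.1 in R 4.3.3, with 3 group means, a variance prior following mean expression and Benjamini-Hochberg adjustment over all genes at 0.05; this scale understates changes of low genes. Abca1, Abcg1, Mylip and Pthlh came from the same model over the 18323 genes above 0 in any library, which departs from the planned filter. The model was tested on simulated data. Nothing says that replicates were separate cultures, so p-values measure the spread between libraries, which may be technical. Positions are from GENCODE M21 (mm10), with 98.8% of tested genes placed; promoters are from RefSeq and matched 7 of 8 genes searched.

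The members and lists were chosen with earlier results of these data known. Named genes were the 9 members, list genes with the smallest p (up to 4 a list), genes fixed by role, and the 2 closest profiles per called member. Of the list genes only some are printed, chosen after their values were seen. Plin2, Pltp, Scarb1 and Stard4, among others, are each in 2 lists. Some genes are not reported here. Alternatives covered pseudocount, filter, scaling, variance prior, replicate block, compared groups alone, pooled hairpins and omission of each library.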

Additional observations from a re-analysis of the deposited data

Results flagged for a closer look

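The hairpins, set against the same control, differed from each other by limma (hairpin 2 minus hairpin 1, log2) for 5 of the 6 tested genes, beside 40.1% of all genes. Lipa was at -0.76, Apoe at -0.49 and Nr1h2 at -0.33, lower with hairpin 2, while Soat1 at 0.48 and Npc1 at 0.18 were higher with hairpin 2. The Apoe call was lost in 6 of 16 alternatives and the Npc1 call in 7 of 17, the replicate block among them. Among nuclear receptors and LXR targets, Nr1h3 differed by 0.60, Rxra by 0.25, Rxrb by -0.16, Srebf1 by -0.33 and Arl4c by 0.62. Apob, of the lipoprotein genes, differed by 2.03. Lipid droplet genes differed by -0.69 (Dgat2) and -0.51 (Plin3). Lysosomal genes differed by -0.80 for Stard3, -1.04 for Scarb2 and -0.80 for Atp6v0d1. Genes of sterol synthesis differed by 0.45 for Dhcr7 and 0.48 for Idi1.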

How the results depend on the processing

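Of 532 alternative values of the 8 genes given a fold, 455 kept their direction and side of the threshold, 52 lost a call, 13 gained one and 12 changed sign. Lipa, Apoe and Soat1 kept their calls with hairpin 1 in every alternative run, as did the hairpin differences of Lipa and Soat1. By limma the number of tested members called was 3 over both hairpins, but 0 with the hairpins pooled. In the pooled fit 1 member had an unadjusted p under 0.05, and 1 of all 11549 genes was called. The number was 5 with hairpin 1. Between hairpins it was 5, but 3 without the filter or without small-RNA entries. Of all genes there, 2148 of 18323 and 1917 of 11281 were higher, and 2055 and 1442 lower. The main fit gave 2297 higher and 2329 lower of 11549. Leaving out 1 library changed the member counts, and also those of all genes. With hairpin 2 the number was 1. It was 0 without the filter, at a mean TPM of at least 5, and after quantile normalization, median-ratio scaling or chromosome centring. It was also 0 without small-RNA entries, without the prior's trend, with the compared groups alone and with the replicate block. In these runs 1 to 4 members had an unadjusted p under 0.05 by limma. Calls of all genes also moved: 765 were higher and 347 lower of 11549 in the main fit. They were 244 and 554 after median-ratio scaling, 47 and 51 with the compared groups alone, and 163 and 113 with the block. At a mean of at least 5 TPM, which Apoe does not reach, they were 886 and 312 of 8706. A 0 alone is thus no result about the members. Between hairpins the block gave 4 against 5, through Npc1, and beside the Apoe call changed no other member call. Signs changed for Nr1h2 with hairpin 2 (-0.065 after quantile normalization, -0.069 after median-ratio scaling, -0.11 without small-RNA entries, -0.12 after chromosome centring) and for Soat1 with hairpin 2 without small-RNA entries (-0.026). Npc2 changed sign over both hairpins without small-RNA entries (-0.00011) and after chromosome centring (-0.0024). With hairpin 2 it changed sign in these settings (-0.029 and -0.014) and with shNT replicate 1 left out (-0.029). The other omissions kept its sign, with values up to 0.231. Abcg1 changed sign between hairpins after quantile normalization (-0.0010) and with hairpin 1 replicate 2 left out (-0.030). The other omissions kept the sign of Abcg1, with values up to 0.091. The cause was not tested. Where 1 library was left out, the lone library of its group was assumed to vary like the other groups. Deviations of libraries that share a replicate number correlated at 0.02, 0.02 and -0.04 across genes. Such a correlation cannot see a shift common to all genes, and Mir6236 was higher in replicate 1 than in replicate 2 of every group. Whether the numbers pair the libraries is therefore not settled. TPM carries no depth, so precision at low levels, as for Abca1 and Mylip, is unknown.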
